A study of Homo sapiens with 4 samples.

Results

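The miRNAs described here come from the locus of PVT1, a long non-coding RNA gene next to the oncogene MYC on chromosome 8. They were taken as every row of the array table named miR-1204, miR-1205, miR-1206, miR-1207 or miR-1208, with any arm or none, and 5 of the 1308 rows met that rule: miR-1204, miR-1206, miR-1207-5p, miR-1207-3p and miR-1208. miR-1205 was not analysed here. Exosomes, the small vesicles that cells release, were collected from Hep3B, a human hepatocellular carcinoma line that lacks the tumour suppressor p53. On 2 arrays the cells had been given 10 µM camptothecin, a drug that traps topoisomerase I on DNA and so leads to strand breaks, for 2 days in exosome-free medium. On the other 2 arrays the cells had been kept for the same time without the drug (the labels read as no treatment, whereas the ratio headers of the authors' second table name DMSO, a solvent often used for such drugs). Each array was read in 1 colour (Cy5).

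A miRNA is cut from a hairpin in a longer transcript, and either side of the hairpin can leave a mature strand, the 5p or the 3p arm, each with its own seed and so its own targets. PVT1 is often amplified together with MYC in tumours, and its transcripts have been reported to stabilise the MYC protein. The gene is also a known p53 target, raised together with miR-1204 in cells that have p53. In the RefSeq gene table of assembly GRCh38.p14 the order along chromosome 8 is MYC, PVT1, then the hairpins of miR-1204, miR-1205, miR-1206, miR-1207 and miR-1208. Those of miR-1204 to miR-1207 lie within the annotated PVT1 gene, and that of miR-1208 lies beyond its end. The study set treated against untreated cells to look for miRNAs regulated by an anticancer treatment. The arrays held miRNAs, so neither PVT1 nor MYC RNA was read.

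The deposited intensities (arbitrary units) spanned 109 to 8435.5 on the treated arrays and 91.4 to 12998 on the untreated arrays, with a shared 75th percentile of 250.15. The groups thus differ in their sets of values, so an entry of equal rank can read differently in each. How much of each change below comes from this was not tested. Quantile normalization of all 4 arrays together, an alternative given below, gives every array the same set of values. The 2 arrays of a group held the same 1308 sorted values, so the deposited replicates differ less than the readings did and the p-values below are likely too small. Separate cultures behind the 2 arrays are not stated in the labels, so that spread may be technical, and the number of arrays limits the precision. Of 5 listed liver miRNAs 4 were measured, from the 3.78 percentile of level for miR-122-5p to the 74.9 percentile for miR-885-5p. Their summed intensity was 733.8 and 708.6 on the treated arrays and 618.6 and 595.6 on the untreated arrays. All 4 listed muscle miRNAs were measured, at the 22.6 to 86.9 percentile, with sums of 1150 and 1132 on the treated arrays and 880.1 and 913.9 on the untreated arrays. Of 4 listed blood cell miRNAs 2 were measured, with sums of 414.9 and 441.2 on the treated arrays and 414.9 and 422.5 on the untreated arrays. Probes differ in brightness, so the sums of these lists are not compared with each other. The part of liver, muscle or blood cell RNA in the results below was not tested.

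Of the 5 miRNAs of the locus, miR-1204 and miR-1206 read higher after camptothecin, by 1.25-fold and 1.22-fold, at levels whose height over background is unknown. miR-1207-5p, the one bright entry, had a lower mean, and miR-1207-3p and miR-1208 differed little, and these 3 did not pass the test. The test was a limma fit of log2 intensities over all entries, with Benjamini-Hochberg adjustment and a threshold of 0.05. It called 46.3% of all entries, 35.1% as higher and 11.2% as lower, so 2 of 5 called higher is close to the share among all entries. The arrays of both groups did not overlap for 4 of the 5 miRNAs, against 78.7% of all entries. It was 3 with both treated arrays above, against 59.4%, and 1 with both below, against 19.3%, which is likewise no result about the locus. All entries together had a median log2 fold change of 0.11, and each change below is also set against it. Since calls varied with level, entries were also divided by level into 4 equal classes of 327.

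miR-1204, from the hairpin nearest to MYC and the one tied to p53, read 188 and 187 on the treated arrays and 153 and 147 on the untreated arrays. Both treated arrays lay above both untreated ones, and the gap between the groups was several times the gap between arrays of a group. Mean intensity was 188 ± 1.2 after camptothecin and 150 ± 3.6 without it (SD, n = 2 each), a 1.25-fold rise (log2 fold change 0.32 ± 0.042 SE; 95% interval 0.22 to 0.43; limma adjusted p = 0.0062). In such a bulk sample, more vesicles that carry a miRNA and more of it per vesicle cannot be told apart. The change was 0.21 above the median of all entries and at the 92.1 percentile of all log2 fold changes. Within its own level class, the third from the dimmest, 21.1% of entries were called higher and the median log2 fold change was 0.062, and miR-1204 stood at the 96.5 percentile. Its place within an array moved too: it lay at the 58.5 and 57.8 percentile of level on the treated arrays and at the 46.6 and 42.4 percentile on the untreated arrays.

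**Figure D1:**
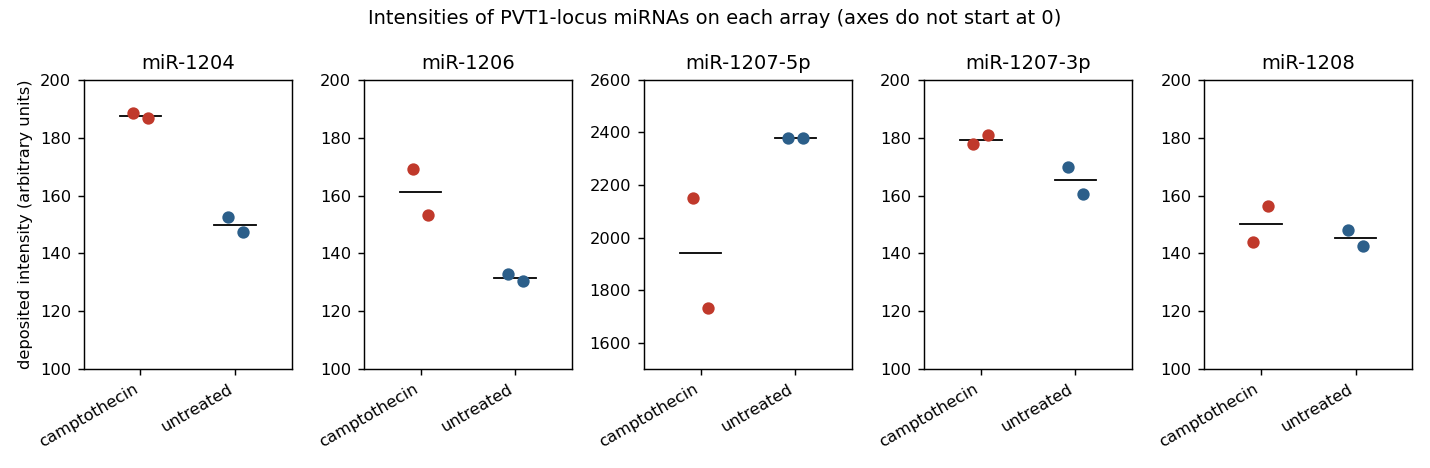
Deposited intensity (arbitrary units, axes not from 0) of each PVT1-locus miRNA on the 2 camptothecin and 2 untreated arrays; points are arrays and bars are group means. miR-1204, miR-1206 and miR-1207-3p have both treated arrays above both untreated ones, miR-1207-5p has both below, and miR-1208 overlaps.

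The rise of miR-1204 kept its direction and its call under each of 4 other scalings. Its log2 fold change was 0.22 with all 4 arrays quantile normalized together, 0.22 with each array centred on its median, 0.39 after normexp background correction and 0.45 with the 75th percentile taken over entries above the median level, with limma adjusted p from 0.0022 to 0.0275. The share of all entries called higher was 6.88% under quantile normalization of all 4 arrays and 8.1% after normexp correction. It was 68.2% with that 75th percentile, where a call says little, and 118 of 1308 entries with each array centred on its median. The call did not outlast the loss of an array: without any 1 of the 4 the limma adjusted p was 0.071 to 0.116, while the log2 fold change stayed between 0.30 and 0.35.

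miR-1206, from a hairpin further into PVT1, read 169 and 153 on the treated arrays and 133 and 130 on the untreated arrays. The groups did not overlap, but the treated arrays were further apart from each other than those of miR-1204. Mean intensity was 161 ± 11.2 after camptothecin and 132 ± 1.8 without it (SD, n = 2 each), a 1.22-fold rise (log2 fold change 0.29 ± 0.059 SE; 95% interval 0.14 to 0.44; limma adjusted p = 0.016). This was 0.18 above the median of all entries, and at the 94.04 percentile of its own level class, the second from the dimmest. In that class 39.1% of entries were called higher and the median log2 fold change was 0.13. On the treated arrays miR-1206 lay at the 49.1 and 35.7 percentile of level, and on the untreated arrays at the 29.5 and 26.5 percentile. The call was lost under 3 of the 4 other scalings, with log2 fold changes of 0.15 (limma adjusted p = 0.215) under quantile normalization, 0.19 (adjusted p = 0.0691) with arrays centred on the median and 0.31 (adjusted p = 0.11) after normexp correction. It was also lost without any 1 array (limma adjusted p 0.0677 to 0.148).

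miR-1208, the outermost hairpin, read 144 and 156 on the treated arrays and 148 and 143 on the untreated arrays. The values of both groups interleave. Mean intensity was 150.1 ± 8.7 after camptothecin and 145.5 ± 3.9 without it (SD, n = 2 each), with a log2 fold change of 0.044 ± 0.056 SE (limma adjusted p = 0.536). The 95% interval of -0.095 to 0.18 allows a change of either sign. It lay 0.068 below the median of all entries, and its sign turned under quantile normalization (-0.094), centring on the median (-0.061) and normexp correction (-0.10). Within the arrays it lay at the 22.7 and 39.1 percentile of level after camptothecin and at the 43.1 and 38.6 percentile without it, so camptothecin replicate 1 alone stood apart.

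**Figure D2:**
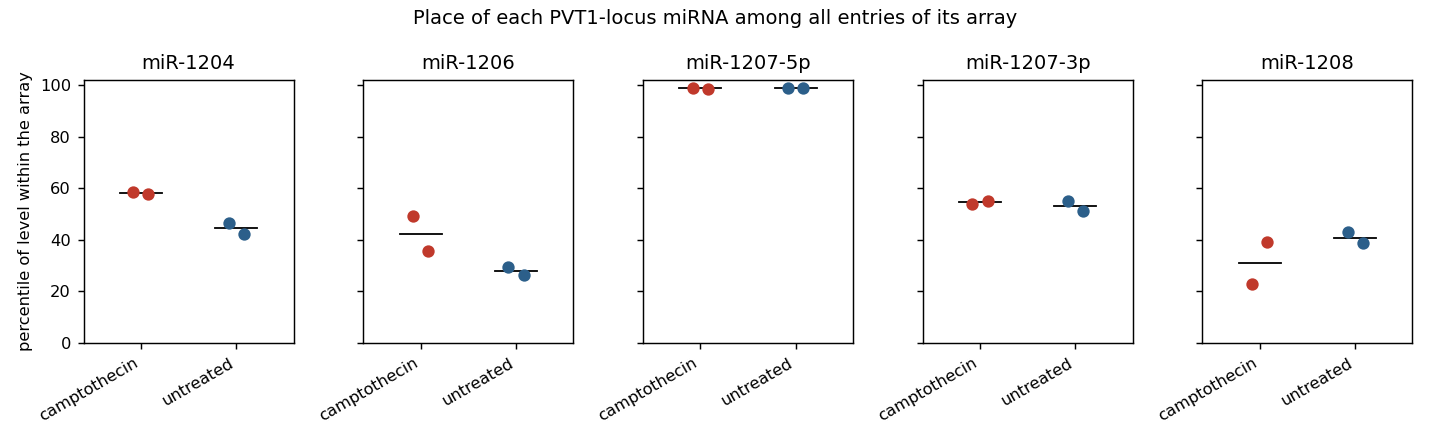
Percentile of level within its array (over 1308 entries, brightest on top) for each PVT1-locus miRNA on the 2 camptothecin and 2 untreated arrays; bars are group means. miR-1204 and miR-1206 stand higher on the treated arrays, miR-1207-5p stays near 99 on all 4 and miR-1208 overlaps.

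The hairpin of miR-1207 was the one of the locus with both arms on the array. miR-1207-5p, reported in other cells to target TERT, the catalytic subunit of telomerase, read 2149 and 1731 on the treated arrays and 2380 on each untreated array. Both treated arrays were below both untreated ones, but they also differed from each other by 0.31 on the log2 scale, as much as the groups did. Mean intensity was 1940 ± 296 after camptothecin and 2380 ± 0 without it (SD, n = 2 each), or 81.0% of the untreated mean by the fitted log2 fold change of -0.30 ± 0.099 SE (95% interval -0.55 to -0.057; limma adjusted p = 0.052). The identical untreated values mean that the entry held the same rank on both arrays, not that the readings before normalization were equal. It was among the brightest entries of every array, at the 98.97 and 98.51 percentile of level with camptothecin and at the 99.04 percentile on both untreated arrays. On camptothecin replicate 1 it thus held nearly the rank it had without the drug, though its intensity was lower.

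The result for miR-1207-5p lay next to the threshold, and its side depended on the setting. It passed as lower after centring every array on its median (-0.41; limma adjusted p = 0.0351), a setting that called 16.2% of all entries lower. It did not pass under quantile normalization of all 4 arrays (-0.15; limma adjusted p = 0.337) or after normexp correction (-0.18; adjusted p = 0.309). Its log2 fold change was -0.46 without camptothecin replicate 1 and -0.15 without camptothecin replicate 2. In both cases its own spread came only from the untreated values, which are equal, so no test is read. The sign was negative in each of these settings. In the brightest level class, to which it belongs, 39.4% were called lower and the median log2 fold change was -0.12, and miR-1207-5p stood at the 24.01 percentile of that class.

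miR-1207-3p, the opposite arm, reported in prostate cancer cells to target the fibronectin-domain gene FNDC1, read 178 and 181 on the treated arrays and 170 and 161 on the untreated arrays. The groups did not overlap, by a narrow margin. Mean intensity was 179 ± 2.1 after camptothecin and 165 ± 6.6 without it (SD, n = 2 each), with a log2 fold change of 0.12 ± 0.047 SE (95% interval 0.0013 to 0.23; limma adjusted p = 0.085). Relative to the median of all entries the difference was 0.0059, and with arrays centred on the median it was 0.013 (limma adjusted p = 0.872). With the 75th percentile taken over entries above the median level, a scaling that moves the median of all entries to 0.24, it passed (0.24; limma adjusted p = 0.0061), as 68.2% of all entries did as higher.

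**Figure D3:**
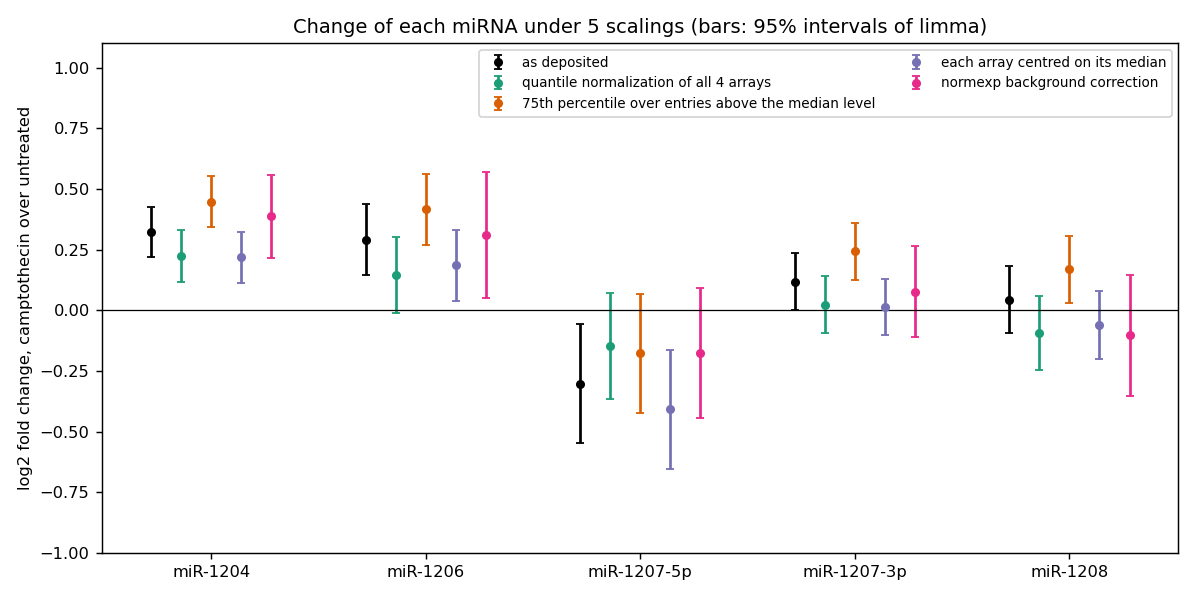
Log2 fold change, camptothecin over untreated, of each PVT1-locus miRNA as deposited and under 4 other scalings; bars are 95% intervals from limma (n = 2 arrays per group). miR-1204 is above 0 in all 5 settings, and miR-1208 lies on both sides of 0.

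The arms of miR-1207 can be compared through their changes, since the intensity of a probe also depends on how well it binds and labels. No ratio of amounts between the arms is read from their levels. The log2 ratio of 5p to 3p within an array was 3.59 and 3.26 with camptothecin and 3.81 and 3.89 without it. Both treated arrays were below both untreated ones. The mean was 3.43 ± 0.24 after camptothecin and 3.85 ± 0.058 without it (SD, n = 2 each), a difference of -0.42. An exact two-sided permutation test over the arrays gave p = 0.333, the smallest that 2 against 2 arrays allow. The difference was -0.17 under quantile normalization of all 4 arrays and -0.25 after normexp correction, and leaving out 1 array gave -0.59 to -0.25.

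The unequal change of the miR-1207 arms was set beside that of all other hairpins, and of those whose 5p arm lay in the same, brightest level class. In 231 hairpins with both arms measured, the log2 fold change of the 5p arm minus that of the 3p arm had a median of -0.084, and miR-1207 stood at the 17.1 percentile. In 39 of them, miR-1207 included, the 5p arm lay in the brightest level class and the 3p arm did not. That class starts at a level of 252, so many of these arms were dimmer than miR-1207-5p. Their median was -0.35, the 5p arm had the lower log2 fold change in 36 of 39, and 16 of the 39 lay below miR-1207. Among the 38 hairpins with the 3p arm in the brightest level class and the 5p arm not, the median was 0.12. Under quantile normalization of all 4 arrays the median of the 39 was -0.13, against -0.17 for miR-1207, and 16 again lay below it.

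**Figure D4:**
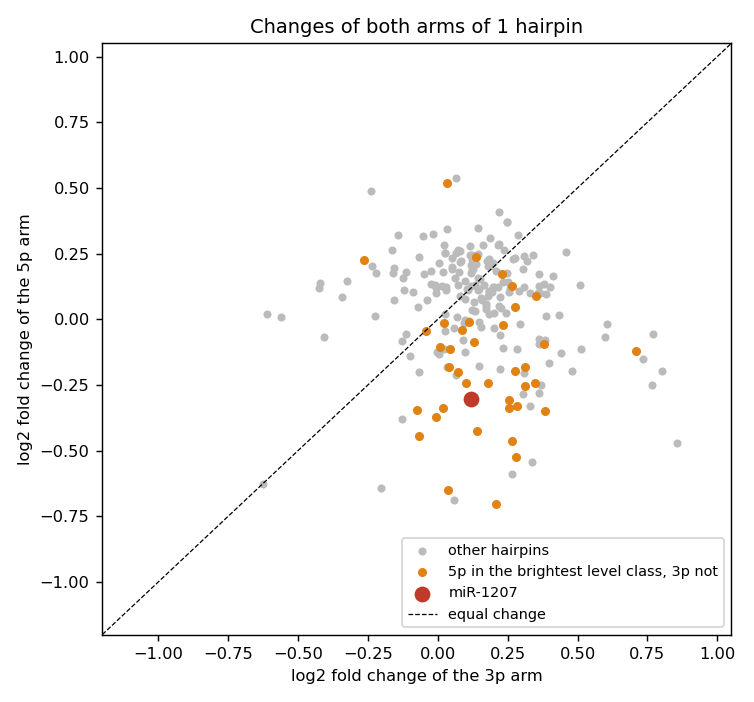
Log2 fold change (camptothecin over untreated) of the 5p arm against that of the 3p arm for 231 hairpins with both arms measured; the dashed line marks equal change. miR-1207 lies below the line among the 39 hairpins whose 5p arm is in the brightest level class and whose 3p arm is not.

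Across other hairpins the difference between arms moved with base composition. Mature sequences from RefSeq (GRCh38.p14) were matched by name to 1105 of the 1308 entries, none of them from the PVT1 locus, and to both arms of 196 hairpins, miR-1207 not among them. Across these 196 hairpins, which share the same 4 arrays, the excess of guanine in the 5p arm had a Pearson r of -0.615 and a Spearman rho of -0.573 with its excess in log2 fold change. Of the 39 hairpins with a bright 5p arm, 33 had both sequences, with a median guanine share of 43.5% in the 5p arm and 22.7% in the 3p arm. In the brightest level class, the median guanine share was 10% in 53 entries called higher and 52.2% in 107 called lower. Guanine share also rose with level, with medians of 26.1%, 27.3%, 31.8% and 40.9% from the dimmest to the brightest level class. Over the same classes the median log2 fold change went from 0.207 in the dimmest to -0.12 in the brightest. The parts of base composition and of level in the correlation and in the miR-1207 result were not tested.

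miR-363, from the miR-106a cluster, a relative of the miR-17 cluster that MYC induces, has a bright 5p arm that fell and a dimmer 3p arm that rose. It is printed as an example outside the locus, with the seed (bases 2 to 8) in capitals and U for uracil.
miR-363-5p: cGGGUGGAucacgaugcaauuu
miR-363-3p: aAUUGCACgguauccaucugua
miR-363-5p, with 31.8% guanine, read 431 and 415 on the treated arrays and 547 and 522 on the untreated arrays (-0.34 on the log2 scale, SE 0.054; limma adjusted p = 0.0096). miR-363-3p, with 18.2% guanine and the seed shared by the miR-25 and miR-92 family, read 159 and 138 on the treated arrays and 128 and 120 on the untreated arrays (0.26 on the log2 scale, SE 0.080; limma adjusted p = 0.046). Its arms thus differed by -0.59 in log2 fold change, more than those of miR-1207. This example was chosen with its values known. The guanine share of its 5p arm lies below the median of 40.9% in the brightest level class. Under quantile normalization of all 4 arrays neither arm of miR-363 passed the test. Among other hairpins that MYC induces, the difference between arms was -0.095 for miR-20b, 0.055 for miR-19a and 0.14 for miR-25.

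**Figure D5:**
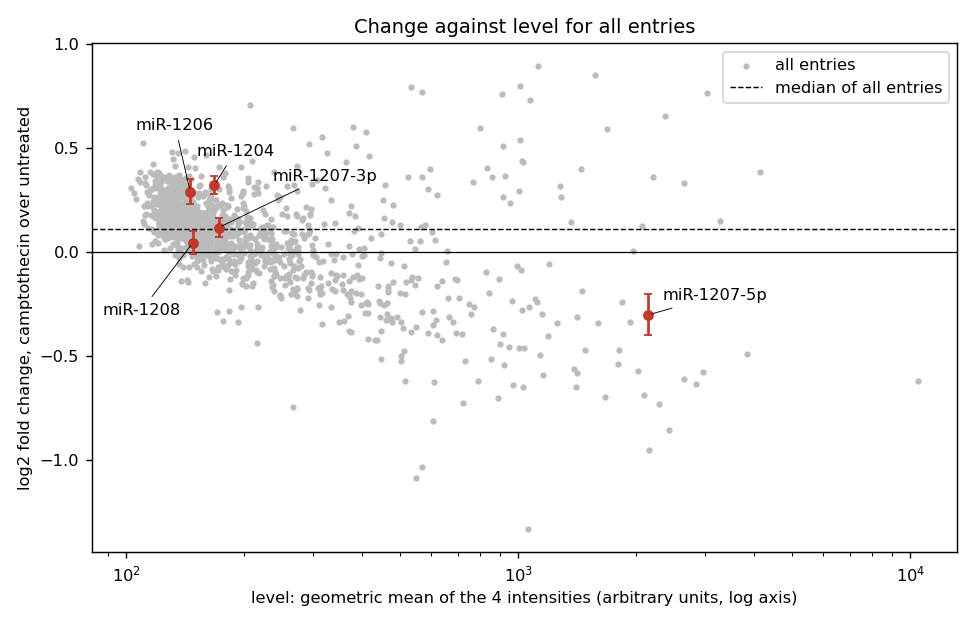
Log2 fold change (camptothecin over untreated) against level, the geometric mean of the 4 intensities on a log axis, for all 1308 entries (grey) and the 5 PVT1-locus miRNAs (red, bars are limma's SE). miR-1204, miR-1206, miR-1207-3p and miR-1208 sit in the dense cloud, at the 35.4 to 53.8 percentile of level. miR-1207-5p lies in the brightest level class, in which 39.4% of entries were called lower.

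The entries whose pattern over the 4 arrays was most like that of miR-1207-5p were miR-6088, miR-6128 and miR-3141. Likeness was the root mean square distance between log2 values, each entry centred on its own mean, and it was 0.0169, 0.0542 and 0.0552 for these 3. Their mature sequences are shown to let their bases be compared with each other, not with miR-1207-5p, with the seed in capitals.
miR-6088: aGAGAUGAagcgggggggcg
miR-6128: aCUGGAAUuggagucaaaa
miR-3141: gAGGGCGGguggaggagga
No seed is shared among them. miR-6088 (60% guanine) and miR-3141 (68.4%) are rich in guanine, and miR-6128 (26.3%) is not. The median was 52.2% in the entries of the brightest level class called lower. miR-6088 read 476 and 376 on the treated arrays and 522 and 533 on the untreated arrays. Its second treated array was low, as for miR-1207-5p, which follows from its choice by likeness.

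The nearest patterns to miR-1204 were those of miR-2681-3p (distance 0.0027), miR-660-3p (0.0155) and miR-488-3p (0.0158), which are printed for the same comparison.
miR-2681-3p: uAUCAUGGaguugguaaagcac
miR-660-3p: aCCUCCUGugugcauggauua
miR-488-3p: uUGAAAGGcuauuucuugguc
Their seeds differ, their guanine shares ran from 23.8% to 27.3%, and all 3 were dim, at the 2.18 to 43.1 percentile of level. miR-2681-3p read 172 and 170 on the treated arrays and 140 and 135 on the untreated arrays. miR-1206 was nearest to miR-4718 (0.01), miR-411-3p (0.0157) and miR-1228-3p (0.0163), and miR-1228-3p is bright, with 1059 and 946 on the treated arrays and 834 and 830 on the untreated arrays. miR-1207-3p was nearest to miR-4422, miR-628-3p and miR-4520a-3p (0.0109 to 0.0112), and miR-1208 to miR-4676-5p, miR-550a-3-5p and miR-668 (0.0054 to 0.0089). No entry of the locus was among the nearest 3 of another, from which little can be read with 1308 entries to choose from.

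Other miRNAs of the far long arm of chromosome 8 moved in both directions. Of 10 entries from 7 of the 10 miRNAs listed, 3 passed as higher and 3 as lower, against 35.1% higher and 11.2% lower over all entries, and their median log2 fold change was 0.092 beside 0.11 over all entries. miR-1234-5p, from an intron of CPSF1, a subunit gene of the mRNA cleavage machinery, was the most changed. It read 1731 and 1569 on the treated arrays and 2655 on each untreated array (-0.69 on the log2 scale, SE 0.054; limma adjusted p = 0.0014). Its opposite arm miR-1234-3p differed by 0.056 (limma adjusted p = 0.347). miR-937, encoded in the polarity gene SCRIB, had a 5p arm that fell (-0.25; limma adjusted p = 0.029) and a 3p arm that rose (0.31; adjusted p = 0.0086). miR-4662a-5p rose by 0.36 (limma adjusted p = 0.0089) at the 0.956 percentile of level. In all 3 hairpins of this list with both arms measured the 5p arm had the lower log2 fold change, as in miR-1207 and in 60.6% of all 231 hairpins. The differences were -0.74 for miR-1234, -0.57 for miR-937 and -0.32 for miR-939. In these 3, as in miR-1207, the 5p arm lay in the brightest level class. Where the 5p arm lay in that class and the 3p arm did not, the 5p arm had the lower change in 36 of 39 hairpins. Under quantile normalization of all 4 arrays 1 of the 10 entries was called higher and 1 lower, against 90 and 79 of all 1308.

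Among miRNAs linked to MYC in textbook accounts, those that MYC induces were mostly dim here. On the other lists the shares below the median level were nearer to that of all entries, 654 of 1308. The counts of each list stand beside 35.1% called higher, 11.2% called lower and a median log2 fold change of 0.112 over all entries as deposited. Under quantile normalization of all 4 arrays 6.88% of all entries were called higher. The lists took either arm of a named miRNA, so many entries are the opposite arms of the strands with the reported link, which have other seeds and so other targets. MYC induces miR-17 and related clusters, and 15 entries came from 9 of the 14 such miRNAs listed, miR-17 not among them. Of these 15, 13 lay below the median level, 8 passed as higher and 1 as lower. Their median log2 fold change was 0.175, and 0 passed under quantile normalization of all 4 arrays. Those called higher included miR-20b-3p (0.32), miR-363-3p and miR-93-5p (0.23), and the lower one was miR-363-5p. MYC represses many others, and 34 entries came from 24 of the 31 listed. Of these 34, 22 lay below the median level, 16 passed as higher and 1 as lower, miR-15a-3p (-0.22, named after its value was seen). Their median was 0.175, and the counts were 3 and 0 under quantile normalization. let-7b-3p (0.41), let-7d-3p (0.36), miR-98-3p (0.36) and miR-16-5p (0.34) had the largest changes. The last list held hairpins with an arm reported to target MYC mRNA, and 14 entries came from 12 of its 15 miRNAs. Most were opposite arms such as let-7b-3p and let-7d-3p, and the let-7, miR-98 and miR-34a entries are shared with the list before. Of these 14, 8 lay below the median level, 11 passed as higher and 0 as lower. Their median was 0.27, and the counts were 4 and 0 under quantile normalization. Among those 14 were miR-34b-3p (0.41) and miR-145-5p (0.36). For comparison, in the dimmest level class, which holds only some of the listed entries, 61.5% were called higher and 0 lower (limma).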

How the data were processed

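Per the labels' protocols, exosomal small RNA was copied to cDNA, amplified and marked with Cy5. The authors deposited linear intensities, 1 per probe and array; how they were scanned, background-corrected or normalized is not stated in those sources. The deposited log2 ratios of their second table equal log2 differences of these intensities within 5e-10 and served, with its names, only for that check and naming. Another 4 value columns of that table were not used. Of the 1308 entries 12 carry joint names. A sample's group is its labelled treatment.

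Log2 intensities, with no further normalization or pseudocount, were fitted with limma 3.58.1 (lmFit, eBayes with intensity trend, two-sided) in R 4.3.3, adjusted by Benjamini-Hochberg over all entries, threshold 0.05; fold changes are camptothecin over untreated. The code was tested on simulated data. No detection flags were used, so height over background is unknown. Members, lists and alternatives were chosen with earlier results of these data known. The text names every member, the 3 nearest patterns of each and up to 4 called entries of each list with the largest change; miR-1234-3p and miR-939 were added after their values were seen. RefSeq coordinates are not printed, since no build is given for the array.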

Additional observations from a re-analysis of the deposited data

How the results depend on the processing

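The total of 606 entries called became 169 with all 4 arrays quantile normalized together, 975 with the 75th percentile over entries above the median level, 330 with each array centred on its median, 191 after normexp correction (offset 50), and, with fewer entries tested, 267 at or above the median level and 190 in the brightest level class. It was 1 to 71 with 1 array left out. Of the PVT1-locus miRNAs, 2 were called as deposited, 1 under quantile normalization, 1 after normexp and 4 with the other 75th percentile. It was 1 of the 3 at or above the median level and 0 of the 1 in the brightest level class. miR-1206 did not pass under quantile normalization (0.15), centring (0.19) or normexp (0.31). miR-1207-3p (0.24) and miR-1208 (0.17) passed with the other 75th percentile, and miR-1207-5p passed with centring (-0.41). miR-1208 turned sign under quantile normalization (-0.094), centring (-0.061), normexp (-0.10) and without camptothecin replicate 2 (-0.015). With 1 array left out the log2 fold changes ran from 0.30 to 0.35 for miR-1204, 0.22 to 0.36 for miR-1206, 0.077 to 0.16 for miR-1207-3p, -0.46 to -0.15 for miR-1207-5p and -0.015 to 0.10 for miR-1208; the lone array is assumed to vary like the other group. The miR-1207 arm difference moved from -0.42 to -0.17 under quantile normalization. Robust variance, a fit without intensity trend and pseudocounts of 16 and 64 changed no call of the 5 miRNAs. The causes were not tested. Replicate numbers are shared between groups, but the labels do not pair the arrays, and deviations of same-numbered arrays had a correlation of -0.0717; with the replicate block 550 entries were called and 3 of the 5 miRNAs, miR-1207-5p now passing (-0.30).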
